A study of Mus musculus with 9 samples.

Results

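The genes of glycolysis and glycogen metabolism were followed in regenerating mouse muscle by 33 symbols, chosen by name for their role. They cover the path from hexokinase to pyruvate kinase, the lactate dehydrogenases, the enzymes that build and break down glycogen, the transporters of glucose and lactate, and 2 genes that govern the entry of pyruvate into mitochondria. They matched 34 of the 54532 Ensembl genes counted, because Aldoa is the symbol of both ENSMUSG00000030695 and a short model upstream of it, ENSMUSG00000114515. All 34 had enough counts to be tested in each comparison.

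The tibialis anterior of C57/BL6J mice was injured by injection of BaCl2, which destroys fibres and starts regeneration, and then received 3 injections at the time of injury and 24 and 48 h later. Young PBS mice, 4 months old, and old PBS mice, 24 months old, received PBS, and old rMETRNL mice of the age of old PBS received recombinant METRNL, an amount of 0.1 per injection whose unit stands both as ug and as ng. The general methods give ages of 3 to 4 months for young and 24 to 26 months for old mice. The labels name a cell suspension of damaged muscle, and the series text day 4 after injury, whereas the study's text describes whole muscle and day 8. Each group held 3 libraries, numbered 1, 2 and 3, or 2, 3 and 4 in old PBS, and no label says whether they came from separate animals, so that the p-values measure the spread between these libraries, which may be technical.

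Glycolysis splits glucose into pyruvate and yields ATP without oxygen, and fast muscle fibres draw on it for short bursts of work. Glycogen is their local store, opened by glycogen phosphorylase, which phosphorylase kinase switches on during contraction. Pyruvate then leaves as lactate or enters the mitochondria through pyruvate dehydrogenase, which the kinase PDK4 switches off when fat is burned, as in fasting. Several steps exist as a form made in mature muscle (Pgam2, Eno3, Pfkm, Pygm) and a form made in most other cells or in liver (Pgam1, Eno1, Pfkl, Pygl).

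The libraries held 16238700 to 22522560 counts, and a count of 3, taken as the floor, was 0.133 to 0.185 CPM of the raw total. Levels are given as CPM, the usual counts scaled to library size, with TMM factors over the 9 libraries, in the order of the replicate numbers. The old PBS libraries stood apart from each other: the summed level of 16 mature fibre genes (Ckm, Acta1, Myh4, Pvalb and others, all above 1 CPM in every library) was 161440, 100754 and 181599 CPM in old PBS 2, 3 and 4, against 134836 to 161075 CPM in young PBS and 133045 to 144879 CPM in old rMETRNL. The summed level of 8 genes of newly formed fibres (Myh3, Myh8, Myog and others) ran the other way, at 1338, 5030 and 671 CPM in old PBS, against 1689 to 2364 CPM elsewhere. In this bulk RNA, fewer cells of a type and less RNA per cell cannot be told apart.

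Promoter sequences are shown for the gene that differed most between groups, Pdk4, for a muscle form and the other form of the same step, Pgam2 and Pgam1, and for Ldha, which held the most matches to ACGTG among the 42 windows. They are RefSeq windows on GRCm38.p6 of 250 bases before to 50 bases after a listed start, at chr6:5496229-5496528 (minus strand), chr11:5803747-5804046 (minus), chr19:41911621-41911920 (plus) and chr7:46845554-46845853 (plus). These starts are not those of the annotation used for gene coordinates here. By that annotation, the Pgam2 and Pgam1 windows lie wholly before the gene starts, 5803733 and 41911923, and the Ldha window lies after its start, 46841475. Capitals mark the E-box CANNTG, the letters read by MyoD and its relatives, in the first 3, and ACGTG on either strand, the core read by HIF factors, in Ldha.
Pdk4: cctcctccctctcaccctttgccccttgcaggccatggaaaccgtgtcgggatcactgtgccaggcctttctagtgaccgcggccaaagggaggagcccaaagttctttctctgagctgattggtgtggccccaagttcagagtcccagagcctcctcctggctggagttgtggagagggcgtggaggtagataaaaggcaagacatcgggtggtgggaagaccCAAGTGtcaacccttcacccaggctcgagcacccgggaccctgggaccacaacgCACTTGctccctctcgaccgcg
Pgam2: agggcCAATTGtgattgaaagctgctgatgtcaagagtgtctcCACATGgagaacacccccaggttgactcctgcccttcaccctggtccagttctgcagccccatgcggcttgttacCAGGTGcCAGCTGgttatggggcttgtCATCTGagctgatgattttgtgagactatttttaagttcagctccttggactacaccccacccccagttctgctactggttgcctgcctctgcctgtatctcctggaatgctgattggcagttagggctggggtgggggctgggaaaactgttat
Pgam1: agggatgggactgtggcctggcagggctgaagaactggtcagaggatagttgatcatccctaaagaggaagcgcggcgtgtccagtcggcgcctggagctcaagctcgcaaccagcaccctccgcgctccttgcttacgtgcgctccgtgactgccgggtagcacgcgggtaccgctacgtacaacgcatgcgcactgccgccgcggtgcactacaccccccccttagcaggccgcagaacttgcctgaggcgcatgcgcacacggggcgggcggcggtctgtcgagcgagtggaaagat
Ldha: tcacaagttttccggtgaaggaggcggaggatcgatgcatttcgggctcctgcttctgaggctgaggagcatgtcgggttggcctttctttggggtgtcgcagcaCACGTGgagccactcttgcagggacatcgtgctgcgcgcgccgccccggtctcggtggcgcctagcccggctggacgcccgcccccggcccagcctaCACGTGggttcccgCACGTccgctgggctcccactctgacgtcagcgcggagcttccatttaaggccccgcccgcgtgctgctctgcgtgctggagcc

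The Pdk4 window held 2 E-boxes, the Pgam2 window 5 and the Pgam1 window 0. That contrast was not shared by all pairs of a muscle form and another form. By window, Hk2 held 0 and Hk1 3 and 1, and Eno3 held 2 and Eno1 2, 0 and 0. Pfkm held 3, 0, 1 and 1 and Pfkl 3, whereas Pygm held 3 and Pygl 0. The Ldha window held 5 matches to ACGTG, of which 4 lie in its pair of CACGTG palindromes, which are read on both strands and are E-boxes too. Over the 42 windows of the 32 symbols with a window in the table, 29 (69%) held an E-box, against 72.3% of all 32851 windows of this length. ACGTG was found on either strand in 19 of the 42 (45.2%), against 19.6% of all windows. A match is a description of letters and not of binding. Slc2a4 had no window in the table.

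The path was carried by few very abundant transcripts. Per length, as RPKM (CPM per 1000 exonic bases) averaged over the 9 libraries, Aldoa was the highest at 3214, rank 16 among all genes, followed by Eno3 at 2897, Gapdh at 1813, Pgam2 at 1351 and Pygm at 1211. Pfkm, Tpi1, Ldha, Pkm and Pgk1 lay between 416 and 821 RPKM. The lowest were Pygl at 1.8, Pfkl at 1.9, Pfkp at 2.0 and Slc2a1 at 2.2 RPKM, the forms of liver, of other tissues and of the basal glucose uptake of most cells. The highest neighbours in this order did not differ beyond their spread: Aldoa and Eno3 were at 3179 ± 538 and 3031 ± 352 RPKM in young PBS (mean ± SD, n = 3), and at 2677 ± 133 and 2724 ± 106 RPKM in old rMETRNL, where their order turned.

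**Figure D1:**
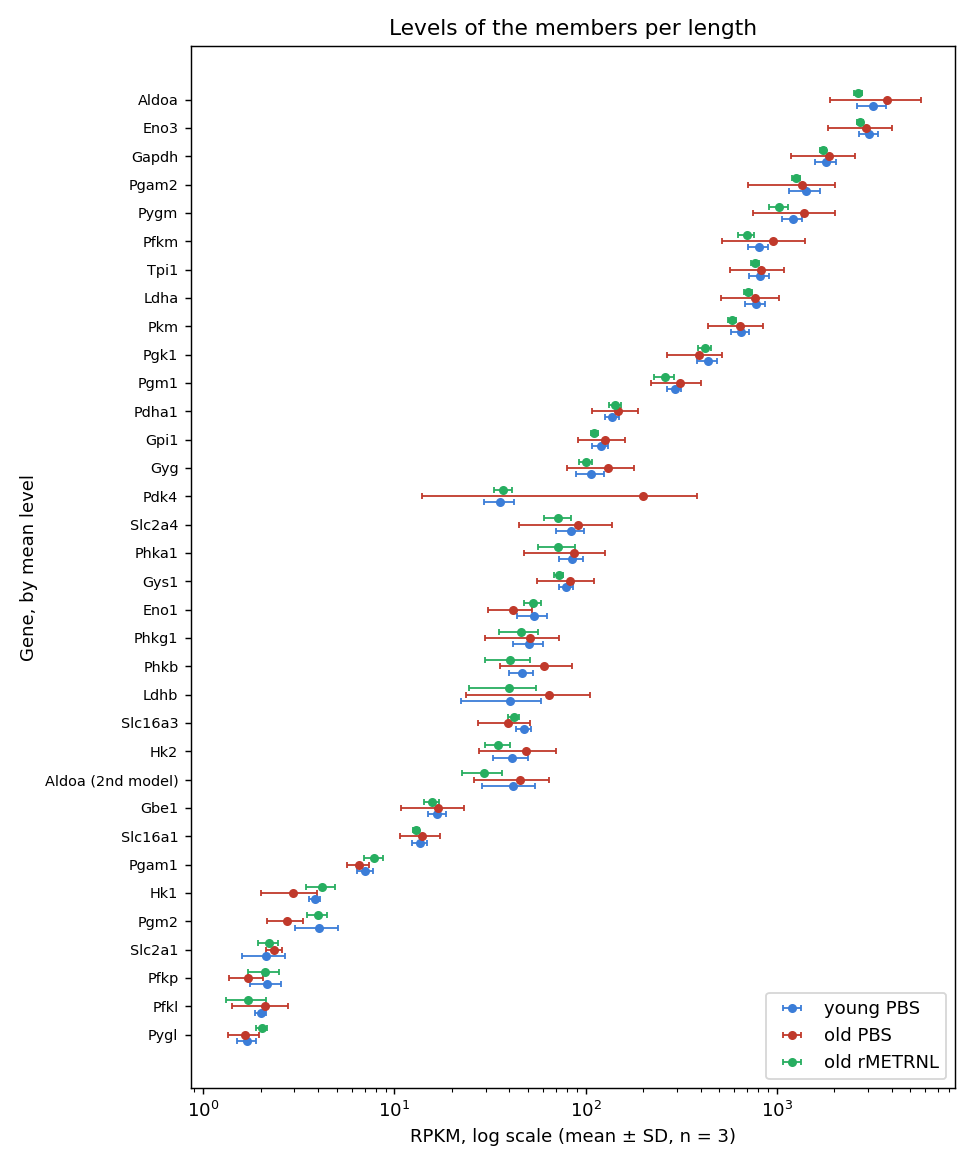
Mean RPKM (log scale) of the 34 genes in young PBS (blue), old PBS (red) and old rMETRNL (green), n = 3 libraries each, with bars of 1 SD and genes ordered by their mean level. Levels span from 1.8 RPKM (Pygl) to 3214 RPKM (Aldoa), and the red bars are the widest for most genes, that of Pdk4 most of all.

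No gene of the 34 passed the threshold (adjusted p under 0.05, edgeR) in any of the 3 comparisons, and none did by DESeq2, which called 1.27% of all genes higher and 0.144% lower in old PBS against young PBS, 0.221% and 1.62% in old rMETRNL against old PBS, and 0% in either direction in old rMETRNL against young PBS. The comparisons of old PBS with young PBS and of old rMETRNL with old PBS share the old PBS libraries, so that their values are not independent. In old PBS against young PBS, 0 of 34 were called higher and 0 lower, against 0.0643% of 15560 genes called higher and 0% lower. At an unadjusted p under 0.05, 1 was higher and 0 lower, against 3.5% and 2.42% of all genes. In old rMETRNL against old PBS, the calls were 0 and 0 as well, against 0% called higher and 0.108% called lower of 15682 genes, and unadjusted p-values passed for 1 gene higher and 1 lower, against 3.51% and 4.57%. In old rMETRNL against young PBS, 0 of 34 and 0 of 15396 genes were called, with 0 genes higher and 1 lower at an unadjusted p under 0.05, against 1.38% and 1.03%.

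The gene that stood out was Pdk4 (ENSMUSG00000019577, chromosome 6, 5483351 to 5496309, minus strand, GRCm38), the kinase that shuts pyruvate dehydrogenase. Its counts were 1857, 2132 and 2676 in young PBS, 4359, 8159 and 23095 in old PBS, and 2135, 2422 and 3103 in old rMETRNL. As levels, these were 107, 118 and 151 CPM in young PBS, 293, 356 and 1452 CPM in old PBS and 114, 137 and 140.3 CPM in old rMETRNL. Each old PBS library was above all 6 others, and old PBS 4 lay far above the other old PBS libraries, while young PBS and old rMETRNL overlapped. The means were 125 ± 22.7, 701 ± 652 and 131 ± 14.2 CPM (SD, n = 3).

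The log2 fold change of Pdk4 was 2.47 (SE 0.58) in old PBS against young PBS, which is 5.56-fold higher, with an unadjusted p of 0.0025 and an adjusted p of 0.245 (edgeR; 0.0992 by DESeq2). Its rank by p was 158 of 15560. It was -2.43 (SE 0.57) in old rMETRNL against old PBS, which is 5.38-fold lower, with an unadjusted p of 0.00215 and an adjusted p of 0.190 (edgeR; 0.0859 by DESeq2). Neither difference held up after adjustment. Against young PBS, in old rMETRNL, it was 0.06 (95% interval -0.26 to 0.38). Pdk4 was called in both comparisons with old PBS when no filter on low counts was set (adjusted p of 0.000173 and 5.07e-11) and when old PBS 3 was left out (0.0390 and 0.0109). Without old PBS 4, the log2 fold changes were 1.37 and -1.33 (adjusted p of 0.106 and 0.0929), and old PBS was still the higher group in every library.

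Per 1000 counts of the mature fibre list, Pdk4 stood at 0.666, 0.797 and 1.12 in young PBS, 1.82, 3.54 and 8.0 in old PBS, and 0.859, 1.03 and 0.969 in old rMETRNL. Old PBS stayed apart from both other groups on this scale, and these overlapped. The difference of the mean log2 values was 2.15 for old PBS minus young PBS and -1.97 for old rMETRNL minus old PBS. Old PBS 4 was the highest of the 9 libraries in Pdk4 and in the fibre list, whereas old PBS 3 was the lowest in the fibre list and not in Pdk4. The summed levels of 8 brain and 6 liver genes, given further on, were also higher in each of these 3 libraries than in all others, and their part in the values of Pdk4 was not tested. Pdha1, the catalytic subunit that PDK4 phosphorylates, lay at 556, 518 and 468 CPM in young PBS, 639.6, 379.9 and 645 CPM in old PBS and 542, 493 and 568 CPM in old rMETRNL. These groups overlapped, with a log2 fold change of 0.11 (95% interval -0.47 to 0.69) in old PBS against young PBS and -0.06 (-0.63 to 0.51) in old rMETRNL against old PBS.

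**Figure D2:**
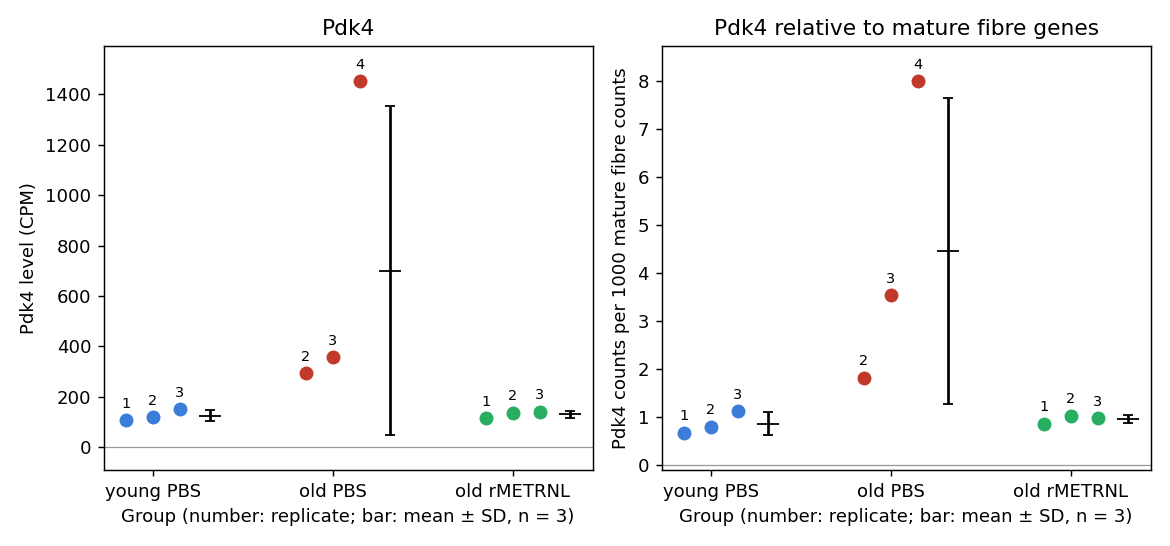
Pdk4 in each library (points, with the replicate number), as CPM on the left and as counts per 1000 counts of 16 mature fibre genes on the right, both from 0, with the mean and SD of 3 libraries beside them in black. The 3 old PBS libraries lie between 293 and 1452 CPM, above the 107 to 151 CPM of all others, and remain above them relative to the fibre genes.

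For most other genes the old PBS libraries held the extremes. In old PBS 4, 23 of the 34 genes were at their highest level of all 9 libraries, and in old PBS 3, 24 were at their lowest, with 21 genes meeting both. The median over genes of the ratio of old PBS 4 to old PBS 3 was 1.99, against 0.972 over all genes tested, and the ratio of the summed fibre list was 1.80. The genes together took 4.803%, 4.32% and 4.24% of the counts in young PBS, 4.37%, 3.37% and 5.58% in old PBS, and 4.23%, 4.06% and 4.10% in old rMETRNL. The old PBS libraries were thus both the lowest and the highest.

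The median coefficient of variation (CV) was 12.1% in young PBS, 33.1% in old PBS and 9.96% in old rMETRNL, against 13.0%, 23.4% and 11.4% over all genes of at least 1 CPM. Slc2a1 and Pgm2 were exceptions, with CVs of 9.35% and 21.7% in old PBS, below their 25.2% and 25.1% in young PBS. Relative to the fibre counts, the median in old PBS was 21.1%, and 26 of the 34 genes varied less on that scale than as CPM. Gapdh, the dehydrogenase often used as a reference gene, is an example: it lay at 8564, 6919 and 7005 CPM in young PBS, 7588, 5019 and 10633 CPM in old PBS and 7201, 7009 and 7499.6 CPM in old rMETRNL. It held within a CV of 3.42% in old rMETRNL and spanned 2.12-fold over the 9 libraries, from old PBS 3 to old PBS 4. The order old PBS 4, 2, 3 from high to low held for 23 of the 34 genes. Hk1, Pfkl, Pfkp, Eno1, Pygl and Pgm2 were instead higher in old PBS 3 than in old PBS 2 and 4. Within old PBS, Pgam1 and Pdk4 were lowest in old PBS 2, and Hk2, Phka1 and the upstream Aldoa model were highest there. Slc2a1 and Slc16a1, also made outside muscle fibres, did take the order.

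**Figure D3:**
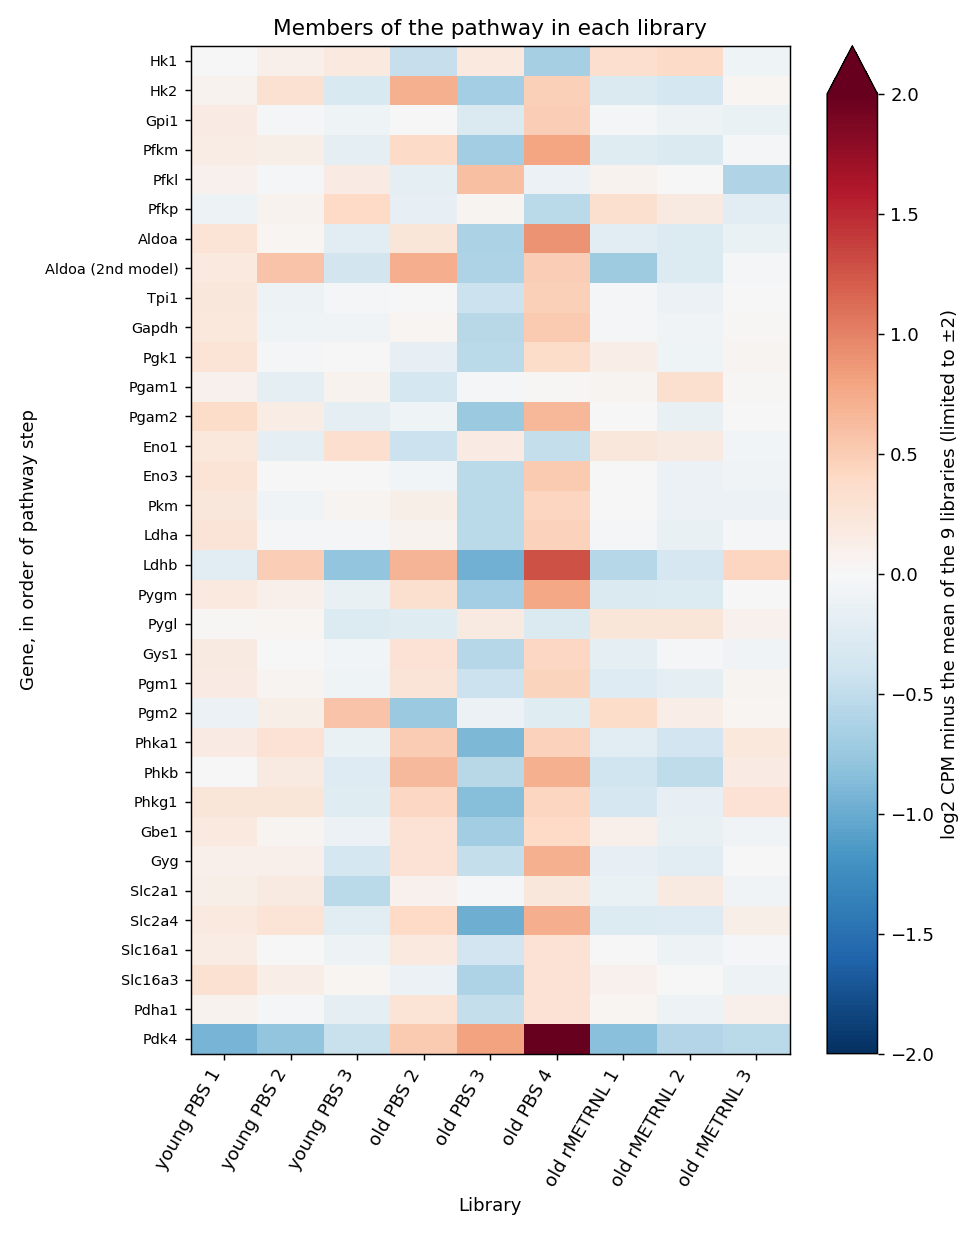
Level of each gene (rows, in order of pathway step) in each library (columns) as log2 CPM minus the mean of the 9 libraries, red above and blue below, with colours limited to ±2. The old PBS 4 column is red and the old PBS 3 column blue for most rows, with Hk1, Pfkl, Pfkp, Eno1, Pygl and Pgm2 highest in old PBS 3 within old PBS, and the Pdk4 row is red in all 3 old PBS libraries only, its value in old PBS 4 exceeding the colour limit.

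Over the 34 genes, the median log2 fold change of old PBS against young PBS was 0.04, against 0.01 over all genes, with 22 higher and 12 lower (52.1% and 47.9% of all genes). The range was -0.56 to 2.47, and 31 of 34 lay within 0.5 of 0. Libraries did not overlap for 1 gene higher, Pdk4, and 0 lower, against 5.26% and 5.25% of all genes. In old rMETRNL against old PBS the median was -0.13, against -0.01 over all genes, with 8 higher and 26 lower (49.3% and 50.7% of all genes), and 28 of 34 within 0.5. Libraries did not overlap for Pgam1 and Pgm2, which were higher, and Pdk4, which was lower, against 6.99% and 5.69% of all genes. In old rMETRNL against young PBS the median was -0.12, with 6 higher and 28 lower (50.2% and 49.8% of all genes), all 34 within 0.5. Pygl, which was higher, was the 1 gene whose libraries did not overlap there, against 3.94% of all genes higher and 2.96% lower.

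The medians of both comparisons with old PBS depended on which old PBS libraries were included. Without old PBS 4 they were -0.17 for old PBS against young PBS and 0.03 for old rMETRNL against old PBS. Without old PBS 3 they were 0.25 and -0.35. Library totals in place of TMM gave -0.05 and 0.02, where 12 genes were higher and 22 lower, and 19 higher and 15 lower. That scaling also moved the median of all genes, to -0.04 and 0.09. Relative to it the 34 genes were at -0.01 and -0.07, against 0.03 and -0.13 with TMM. In old rMETRNL against young PBS the median stayed below 0 with each library left out in turn, from -0.18 to -0.06.

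**Figure D4:**
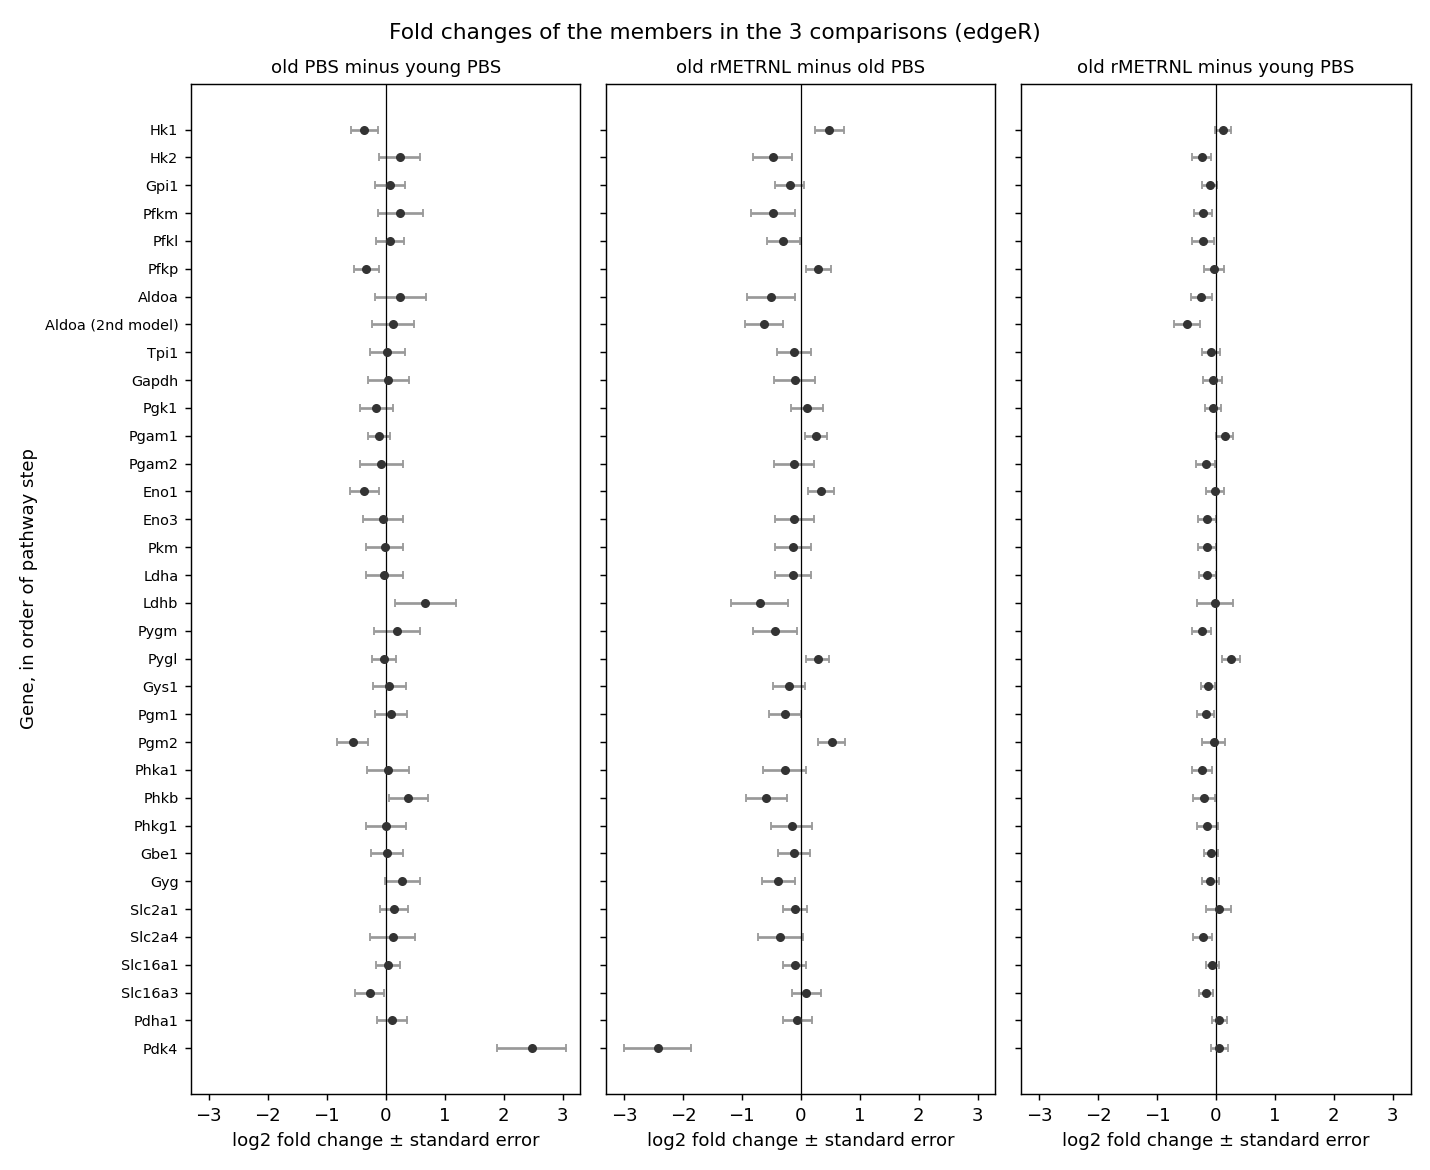
log2 fold change (points) and standard error (bars) by edgeR for each gene in old PBS minus young PBS, old rMETRNL minus old PBS and old rMETRNL minus young PBS, 3 libraries a group. Most points lie within 0.5 of 0 in each panel, and Pdk4 lies at 2.47, -2.43 and 0.06.

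Among the 16 genes from hexokinase to pyruvate kinase, 8 had a positive and 8 a negative log2 fold change in old PBS against young PBS (-0.37 to 0.25), and 5 and 11 in old rMETRNL against old PBS (-0.62 to 0.48). Hexokinases trap glucose in the cell as glucose 6-phosphate. Hk2, the form of insulin-responsive muscle, lay at 251, 295 and 194 CPM in young PBS, 389.9, 149 and 332 CPM in old PBS and 194, 188 and 245 CPM in old rMETRNL. Hk1, the form of most tissues, lay at 30.4, 32.8 and 34.8 CPM in young PBS, 22, 34.7 and 19.2 CPM in old PBS and 38.5, 39.5 and 28.7 CPM in old rMETRNL. Hk2 was highest in old PBS 2 and 4 and lowest in old PBS 3, whereas Hk1 was lowest in old PBS 2 and 4, and the groups overlapped for both. Hk1 had log2 fold changes of -0.37 (adjusted p of 0.994, edgeR), 0.48 (0.664) and 0.12 (0.9996) in the 3 comparisons. The summed level of 10 macrophage genes was also highest in old PBS 3 within old PBS, at 1375, 2092 and 1525 CPM. It was 1946 to 2258 CPM in young PBS and 2074 to 2418 CPM in old rMETRNL. The same held within old PBS for 5 endothelial genes, at 274, 307 and 203 CPM, and for the genes of newly formed fibres. It did not hold for the lists of mature fibre, fibro-adipogenic, red blood cell, adipocyte, brain and liver genes. The part of these lists in the values of Hk1 was not tested.

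Phosphofructokinase commits sugar to the path. Its muscle subunit Pfkm lay at 2914, 2854 and 2323 CPM in young PBS, 3454, 1628 and 4530.3 CPM in old PBS and 2227, 2164 and 2589 CPM in old rMETRNL. The subunits of liver and platelets were far lower, with Pfkl at 13.4, 12.4 and 14.2 CPM in young PBS, 11.04, 19.3 and 11.7 CPM in old PBS and 13.3, 12.8 and 8.37 CPM in old rMETRNL. Pfkp lay at 24.4, 27.5 and 34.7 CPM in young PBS, 23.5, 27.2 and 18.1 CPM in old PBS and 32.6, 29.9 and 22.3 CPM in old rMETRNL. None of the 3 separated the groups, and the log2 fold change of Pfkp in old PBS against young PBS was -0.33 (SE 0.21, adjusted p of 0.994).

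Aldolase cleaves fructose 1,6-bisphosphate, and Aldoa is its muscle form. The main Aldoa gene lay at 10846, 9204 and 7713 CPM in young PBS, 10631, 5752 and 16692 CPM in old PBS and 7757, 7422 and 8196 CPM in old rMETRNL. The short upstream model, chromosome 7, 126800790 to 126809108, lay at 33.3, 43.6 and 22.8 CPM in young PBS, 48.7, 19.1 and 41.1 CPM in old PBS and 17.8, 24.2 and 28.7 CPM in old rMETRNL. Groups overlapped for both, and the upstream model had the most negative value of the 34 in old rMETRNL against young PBS, -0.49 (unadjusted p of 0.0484, adjusted p of 0.9996). It was -0.62 in old rMETRNL against old PBS (adjusted p of 0.669).

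Of the next steps, phosphoglycerate mutase is made as Pgam2 in muscle and Pgam1 elsewhere. Pgam2 lay at 1416, 1213 and 971 CPM in young PBS, 1033, 659.6 and 1736 CPM in old PBS and 1097, 998 and 1092 CPM in old rMETRNL. Pgam1 lay at 14.9, 12.4 and 14.7 CPM in young PBS, 11.04, 13.6 and 14.2 CPM in old PBS and 14.6, 17.5 and 14.3 CPM in old rMETRNL. All old rMETRNL libraries were above all old PBS libraries for Pgam1, 14.3 CPM or more against 14.2 CPM or less, with a log2 fold change of 0.25 (adjusted p of 0.759), which did not hold up. Enolase forms phosphoenolpyruvate. Its muscle form Eno3 lay at 5978, 4912 and 4925 CPM in young PBS, 4782, 3415 and 7118 CPM in old PBS and 4934, 4569 and 4706 CPM in old rMETRNL. Eno1 lay at 303, 230.3 and 329 CPM in young PBS, 193, 292 and 188 CPM in old PBS and 305, 297 and 252 CPM in old rMETRNL. Eno1 was lowest in old PBS 2 and 4 and unremarkable in old PBS 3, with log2 fold changes of -0.36 and 0.34 (adjusted p of 0.994 and 0.729). Gpi1, Tpi1, Pgk1 and Pkm, the isomerases and the ATP-yielding kinases, had log2 fold changes between -0.19 and 0.10 in both comparisons with old PBS.

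Lactate dehydrogenase is made as Ldha, which favours lactate in fast fibres, and Ldhb, which favours pyruvate in heart and slow fibres. Ldha lay at 2938, 2387 and 2413 CPM in young PBS, 2571, 1686 and 3374 CPM in old PBS and 2387, 2202 and 2416 CPM in old rMETRNL. Ldhb lay at 56.8, 94.0 and 38.8 CPM in young PBS, 107, 34.4 and 162 CPM in old PBS and 44.9, 52.6 and 89.6 CPM in old rMETRNL. After Pdk4, Ldhb had the widest span over the libraries, 4.71-fold, with both ends in old PBS, and it was the most variable of the genes within young PBS and within old rMETRNL (CV of 44.5% and 38.2%). Its log2 fold changes were 0.67 (SE 0.51, adjusted p of 0.994) and -0.70 (SE 0.49, 0.738), each within the spread of the replicates.

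Of the 10 genes of glycogen metabolism, the log2 fold change was positive for 8 and negative for 2 in old PBS against young PBS, and positive for 2 and negative for 8 in old rMETRNL against old PBS, none past the threshold. Pygm, the muscle phosphorylase that releases glucose 1-phosphate, lay at 4315, 4025 and 3385 CPM in young PBS, 4658, 2333 and 6426 CPM in old PBS and 3079, 3099 and 3747 CPM in old rMETRNL. Its liver form Pygl lay at 12.4, 12.5 and 10.1 CPM in young PBS, 10.4, 13.8 and 9.998 CPM in old PBS and 14.4, 14.5 and 12.9 CPM in old rMETRNL. Every old rMETRNL library was above every young PBS library for Pygl, with a log2 fold change of 0.26 (SE 0.15, adjusted p of 0.9996). Pygm was at -0.24 (SE 0.16), with groups that overlapped.

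Phosphoglucomutase links glycogen to glycolysis, and its main muscle gene here was Pgm1 (ENSMUSG00000025791). Pgm2 (ENSMUSG00000029171), a minor relative at few counts, 80 to 238 per library, lay at 8.32, 9.76 and 13.4 CPM in young PBS, 5.38, 8.34 and 7.61 CPM in old PBS and 11.7, 9.90 and 9.23 CPM in old rMETRNL. It was the only gene other than Pdk4 with an unadjusted p under 0.05 in old rMETRNL against old PBS, at 0.52 (SE 0.23, p of 0.0485, adjusted p of 0.618). Old PBS was below old rMETRNL in every library, and overlapped young PBS (-0.56, adjusted p of 0.876). The order is the reverse of that of Pgm1, at 0.09 and -0.27.

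Phosphorylase kinase relays calcium and adrenaline signals to Pygm. Its beta subunit Phkb lay at 350.0, 393 and 292 CPM in young PBS, 542, 238 and 569 CPM in old PBS and 265, 245 and 391.6 CPM in old rMETRNL. Old PBS 2 and 4 were above all other libraries and old PBS 3 was the lowest, so that the groups overlapped (0.38 and -0.59, adjusted p of 0.994 and 0.701). The muscle alpha and gamma subunits Phka1 and Phkg1 had log2 fold changes of 0.04 and 0.01, then -0.27 and -0.16. Gys1, the muscle glycogen synthase, Gbe1, the branching enzyme, and Gyg, the protein primer of glycogen, ranged from 0.02 to 0.28 and then from -0.38 to -0.11.

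Of the transporters, Slc2a4 encodes GLUT4, which insulin brings to the fibre surface, and lay at 314, 329 and 237 CPM in young PBS, 361, 139 and 455 CPM in old PBS and 226, 228 and 298 CPM in old rMETRNL. Slc2a1, the GLUT1 of most cells, lay at 8.37, 8.71 and 5.30 CPM in young PBS, 8.21, 7.51 and 9.06 CPM in old PBS and 7.07, 8.76 and 7.33 CPM in old rMETRNL. The low ends of Slc2a4 and of the mature fibre list were both in old PBS 3, and neither transporter separated the groups. Slc16a3, the lactate exporter MCT4 of fast fibres, lay at 278, 248 and 232 CPM in young PBS, 208, 147 and 274 CPM in old PBS and 238, 223 and 210.5 CPM in old rMETRNL. Slc16a1, the lactate carrier MCT1, lay at 65.8, 59.5 and 55.1 CPM in young PBS, 67.9, 45.4 and 72.5 CPM in old PBS and 59.6, 55.2 and 58.1 CPM in old rMETRNL. Slc16a3 had log2 fold changes of -0.27, 0.09 and -0.17, none past the threshold.

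The balance of muscle form and other form was compared as the log2 ratio of their RPKM, for 9 pairs in 3 comparisons. In Ldha to Ldhb and Slc16a3 to Slc16a1 the other form is also made in muscle fibres, so these pairs do not set muscle against other tissues. The first-named form was higher in every library, from a mean of 1.80 ± 0.00979 for Slc16a3 to Slc16a1 to 9.49 ± 0.0540 for Pygm to Pygl in young PBS (SD, n = 3). In 27 exact two-sided permutation tests the smallest p was 0.1, which is the smallest that 3 libraries against 3 allow, and every adjusted p was at least 0.794. For Slc16a3 to Slc16a1 the ratio was lower in each old PBS library than in each young PBS library, with a mean difference of -0.33, and likewise in old rMETRNL against young PBS, with -0.11. For Pygm to Pygl it was lower in each old rMETRNL library than in each young PBS library, with -0.50. The other 24 comparisons of ratios overlapped. Old PBS 3 had the lowest ratio of its group for 7 of the pairs, the exceptions being Ldha to Ldhb, where it was the highest, and Slc16a3 to Slc16a1.

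**Figure D5:**
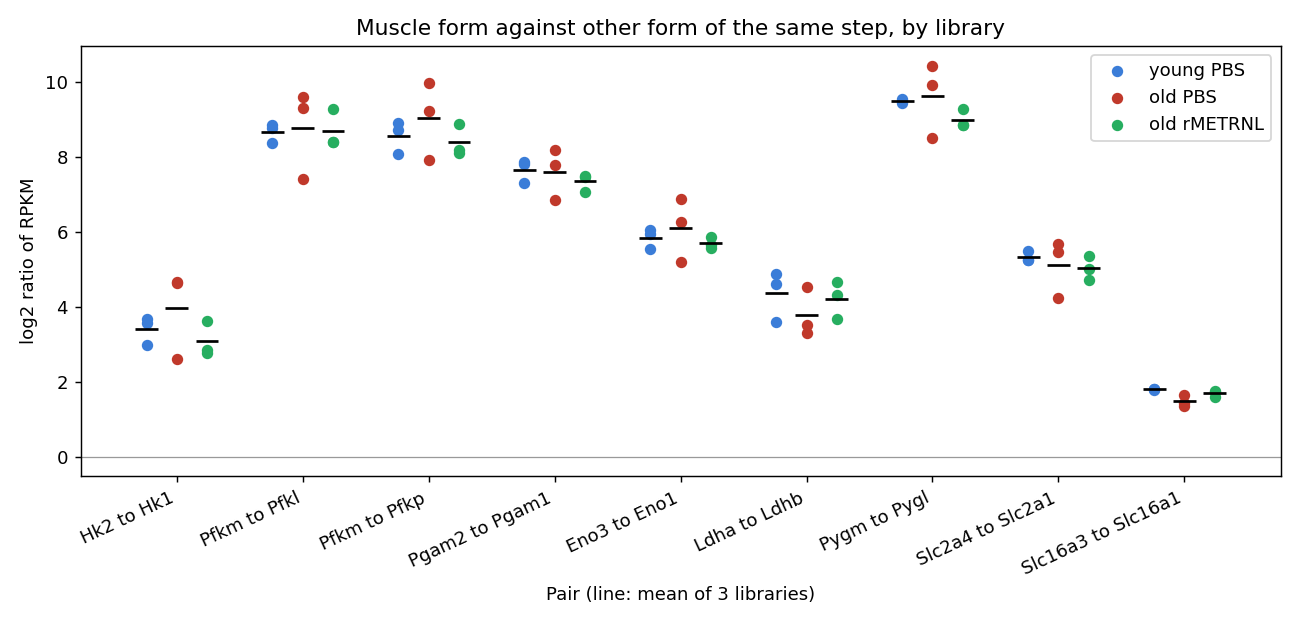
log2 ratio of the RPKM of the muscle form to that of the other form, for 9 pairs, in each library of young PBS (blue), old PBS (red) and old rMETRNL (green), with black lines at the mean of 3 libraries. For Ldha and Slc16a3 the form called muscle is that of fast fibres. All points lie above 0, and the old PBS points spread more widely than those of the other groups for most pairs.

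Leaving out old PBS 3, whose fibre signal was the lowest, changed what was called. For old rMETRNL against old PBS, 7 of the 34 genes then passed the threshold (edgeR, adjusted p under 0.05), 1 higher and 6 lower, which is 2.94% and 17.6%, against 3.78% higher and 5.98% lower of 15981 genes. Hk1 was higher, with a log2 fold change of 0.79, and Hk2, Ldhb, Phkb and Slc2a4 were lower, with -0.79, -1.11, -0.89 and -0.70, as were the upstream Aldoa model and Pdk4. In old PBS against young PBS, 1 of the 34, Pdk4, was then called, which is 2.94%, against 1.82% of 15884 genes called higher and 0.705% lower. The old PBS libraries that remain, 2 and 4, are those of the higher fibre signal, and its part in these calls was not tested.

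Of 59 other genes of the same pathways, 52 could be tested. In old PBS against young PBS 36 were higher and 16 lower, against 52.1% and 47.9% of all genes. Of these genes 1 was called higher and 0 lower, against 0.0643% and 0% of all genes (edgeR). In old rMETRNL against old PBS 12 were higher and 40 lower, against 49.3% and 50.7% of all genes. There 0 were called higher and 1 lower, against 0% and 0.108% of all genes (edgeR). For old rMETRNL against young PBS none was called, and at an unadjusted p under 0.05 Aldoc and Pdp2 were lower. The gene called in both was Aldoc (ENSMUSG00000017390), the aldolase form of brain. It lay at 0.751, 0.666 and 0.846 CPM in young PBS, 11.04, 10.4 and 22.01 CPM in old PBS and 0.321, 0.226 and 0.452 CPM in old rMETRNL, with the old PBS libraries far above all others. Its log2 fold changes were 4.24 (SE 0.38, adjusted p of 0.00881) and -5.39 (SE 0.43, adjusted p of 0.00416). Aldoc held 164, 237 and 350 counts in old PBS, but 13, 12 and 15 in young PBS and 6, 4 and 10 in old rMETRNL. The latter are near the floor of 3 counts, so the size of these fold changes rests on few counts.

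Genes of brain and liver were present in the old PBS libraries. The summed level of 8 brain genes (Snap25, Mobp, Gfap and others) was 236, 81.9 and 283 CPM in old PBS, against 10.97 to 16.5 CPM elsewhere and for 8 of 8 each old PBS library lay above the rest. Snap25, Mobp and Nefl were at 0 counts in all 6 other libraries. The summed level of 6 liver genes was 83.7, 30.8 and 8.99 CPM in old PBS, against 0.113 to 0.482 CPM elsewhere, with 6 of 6 separated in the same way. Of the 52 other pathway genes tested, 7 (13.5%) were higher without overlap in old PBS than in young PBS, against 5.26% of all genes, and 7 (13.5%) were lower without overlap in old rMETRNL than in old PBS, against 5.69%. Aldoc, Eno2, Slc2a3, Fbp2, Pgam5 and Ppp1r3c were among both. Of these, 2 besides Aldoc are known from neurons: the glucose transporter Slc2a3, at 6.18, 6.49 and 5.75 CPM in young PBS, 9.22, 7.12 and 10.8 CPM in old PBS and 4.39, 3.11 and 6.11 CPM in old rMETRNL, and the enolase Eno2, at 5.60, 4.83 and 7.44 CPM in young PBS, 7.54, 7.73 and 11.3 CPM in old PBS and 4.66, 6.62 and 4.93 CPM in old rMETRNL. Their log2 fold changes were 0.55 and 0.57 in old PBS against young PBS, then -0.99 and -0.72 in old rMETRNL against old PBS, with adjusted p of at least 0.371 (edgeR). Pygb, the glycogen phosphorylase form of brain, ran the other way, with -0.21 and 0.43 (adjusted p of 0.994 and 0.704, edgeR). It lay at 21.1, 25.8 and 30.8 CPM in young PBS, 19.3, 29.7 and 18.0 CPM in old PBS and 39.8, 24.8 and 26.2 CPM in old rMETRNL, and the groups overlapped. The part of the brain and liver genes in the results of Aldoc, Slc2a3 and Eno2, and of the 34 genes, was not tested.

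Outside the 33 symbols, a muscle gene was likewise highest in old PBS. Fbp2 (ENSMUSG00000021456, chromosome 13, 62836877 to 62858422), the muscle fructose bisphosphatase that runs the phosphofructokinase step backwards, lay at 14.7, 12.8 and 6.31 CPM in young PBS, 35.9, 21.0 and 103 CPM in old PBS and 9.05, 7.80 and 12.5 CPM in old rMETRNL. All old PBS libraries were above all others, with old PBS 4 the highest. Its log2 fold changes were 2.23 (SE 0.57, adjusted p of 0.312, edgeR) and -2.44 (SE 0.53, adjusted p of 0.142), and DESeq2 called the latter (adjusted p of 2.69e-05) and not the former (0.139). Per 1000 fibre counts it stood at 0.0914, 0.0859 and 0.0468 in young PBS, 0.222, 0.208 and 0.565 in old PBS, and 0.0680, 0.0586 and 0.0862 in old rMETRNL, where old PBS again did not overlap with the other groups and these overlapped with each other. In old PBS against young PBS, Hk3, the hexokinase of blood cells, was lower at an unadjusted p of 0.0225 (adjusted p of 0.696). Against old PBS, in old rMETRNL, Gaa, the lysosomal glycogen-splitting enzyme, and Ppp1r3c, which targets phosphatase to glycogen, were lower at unadjusted p of 0.0295 and 0.0419 (adjusted p of 0.544 and 0.596).

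Exons of 13 of the 34 genes overlap those of another gene, on the same strand for Pkm, on both for Pfkm and on the opposite strand for the others, and no source used here states whether the counting used strand. Of the genes discussed most, Pdk4 and Ldhb have no such overlap.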

How the data were processed

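RNA of injured tibialis anterior muscle was measured in 9 libraries. The authors deposited raw counts of reads per Ensembl gene, 1 column per library. By the methods, the NEBNext Ultra kit and paired-end NovaSeq reads were used, with DESeq2 for quantification and testing. The submitters' processing notes name STAR, featureCounts and mm9, without versions, and the strand setting is not given in the sources used here. All 9 columns were used. Symbols (54495 of 54532 genes), exon lengths and coordinates came from GENCODE M21 on GRCm38, which is not the build named in the notes.

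Each comparison used the 6 libraries of its groups, in edgeR 4.0.16 under R 4.3.3 (filterByExpr, TMM, glmQLFit, glmQLFTest, Benjamini-Hochberg adjustment over all genes tested, threshold 0.05). Standard errors and 95% intervals were taken from each log2 fold change and its F value. CPM used TMM factors of all 9 libraries, and RPKM is CPM per 1000 exonic bases. A fold was not computed against a group at the floor of 3 counts, which covers counting error only. Ratios within pairs were compared with exact two-sided permutation tests.

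The rule for members uses gene names and no values, but the members and lists were chosen with earlier results of these data known, and the brain and liver lists after those results had shown such genes. Each member may be named. The values of every library are given for the 3 of lowest p in each direction and comparison, for genes of a pair and for a few others (Pdha1, Gapdh, Aldoa) chosen after their values were seen. Other pathway genes are named when called or, where none was, for the 2 of lowest p, and the rest (Eno2, Slc2a3, Pygb, Fbp2, Pgam5, Hk3, Gaa and Ppp1r3c) were chosen after their values were seen. Alternatives were DESeq2's size factors, DESeq2 1.42.0, no filter, at least 10 counts in every library, a model of all 9 libraries at once, a block for replicate numbers, another denominator for the share of counts, each library left out in turn and, chosen after the data were seen, library totals. The labels give no batch or date. Replicates were not copies: counts of library pairs within a group gave a chi-square of 11.9 to 188 for each degree of freedom.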

Additional observations from a re-analysis of the deposited data

How the results depend on the processing

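No alternative other than no filter and leaving out old PBS 3 called any of the 34 genes. With no filter, 354, 740 and 132 genes were called in old PBS against young PBS, old rMETRNL against old PBS and old rMETRNL against young PBS, among them 1, 1 and 0 of the 34 (Pdk4 in both). In the first 2 comparisons, in this order, 3 and 1 genes were called with at least 10 counts in every library, 265 and 357 by DESeq2, and 63 and 71 in the fit of all 9 libraries. The 34 genes gave 2 that did not overlap in old PBS against young PBS with DESeq2's size factors or with library totals. They gave 1 in old rMETRNL against old PBS with library totals. The share of all genes without overlap was not computed under these scalings, so these counts describe the 34 genes only. Of all counts outside the mature fibre list and the mitochondrial genome, the genes took 5.72% in young PBS, 5.90% in old PBS and 5.21% in old rMETRNL, against 4.455%, 4.44% and 4.13% of all counts. The cause of these differences was not tested.

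With each library left out in turn, the genes called ranged from 2 to 401, 3 to 1560 and 0 to 1 in the 3 comparisons, those of the 34 from 0 to 1, 0 to 7 and 0 to 0, and those of the 34 that did not overlap from 1 to 20, 3 to 26 and 2 to 12, where fewer libraries in a group overlap less often by construction. The highest values of the first 2 comparisons came without old PBS 3. With a library left out, the share of all genes without overlap was not computed. The counts without overlap are therefore not a result about the 34 genes. Differences of pair ratios turned direction with a library left out for Pfkm to Pfkl (-0.31 to 0.79, -0.76 to 0.34 and -0.26 to 0.18 in the 3 comparisons), Pfkm to Pfkp (-0.0031 to 1.03), Pgam2 to Pgam1 (-0.34 to 0.33), Eno3 to Eno1 (-0.12 to 0.73), Pygm to Pygl (-0.28 to 0.68) and Slc2a4 to Slc2a1 (-0.48 to 0.24), all in old PBS against young PBS, for Pgam2 to Pgam1 (-0.64 to 0.032) and Slc2a4 to Slc2a1 (-0.54 to 0.18) in old rMETRNL against old PBS, and for Ldha to Ldhb (-0.53 to 0.12) in old rMETRNL against young PBS.

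Whether the replicate numbers pair the libraries could not be decided, since few libraries share a number and no reference spread was computed. The correlation of deviations of same-numbered libraries was 0.15 and 0.48 in old PBS against young PBS. It was -0.05 and -0.38 in old rMETRNL against old PBS, and 0.02, -0.07 and -0.23 in old rMETRNL against young PBS. The fit with the replicate block drops the libraries without a partner in the comparisons with old PBS, and called 11, 65 and 0 genes and none of the 34. Their median was then -0.14, 0.09 and -0.12, and Pdk4 was at 1.28 and -1.23. With 3 libraries a group, the 95% interval of a log2 fold change against old PBS was wide, for Gapdh from -0.76 to 0.85 against young PBS.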
